A study of Mus musculus with 16 samples.

Results

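The homeobox and other developmental transcription factor genes described here are the genes whose symbol begins with the name of 1 of 14 families: Hox, Pax, Lhx, Fox, Sox, Gata, Hnf, Tbx, Pou, Nkx, Dlx, Meis, Irx and the sine oculis family of Six5. Among probes with 1 gene symbol, the rule found 43 genes of 9669, on 48 probes. Fox genes were the most numerous with 12 members, followed by Hox with 6 and Sox with 5. Pax, Tbx, Pou and Irx had 3 each, Gata and Hnf 2 each, and Nkx2-6, Dlx6, Meis3 and Six5 were the only members of their families. No Lhx gene was found. The rule used names and no measured value. Of the 43, 3 carry a family name without being a transcription factor gene: Tbxas1 encodes thromboxane synthase, Hoxa11os is an antisense RNA of the Hoxa11 locus, and Pou2af1 encodes a B cell coactivator that binds POU factors. The other 40 encode DNA-binding factors.

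The RNA came from 3 males of the inbred wildtype strain C3HeB/FeJ and was hybridised to 16 arrays with 2 colours. On 7 kidney arrays the left kidney of a single mouse was set against a pool of 5 livers, with 3, 3 and 1 arrays for mice 1, 2 and 3. On 9 liver arrays, 3 for each of these mice, the dorsal liver lobe was paired with pooled RNA of 5 kidneys. All mice were untreated as far as the labels say, bred free of specified pathogens and 105 ± 5 days old, so the groups differ in organ only.

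Homeobox, forkhead, SRY-related HMG-box, GATA, T-box and POU proteins bind short DNA motifs and turn gene programmes on or off. They set up body axes and organ identity in the embryo, and some stay active in adult cells, where they hold a cell type's programme. In adult liver, Hnf4a, a nuclear receptor, and Foxa factors drive genes of hepatocytes. In the kidney, Hox, Pax, Lhx and Irx genes pattern the nephron and its duct, Hnf4a acts in the proximal tubule and Foxi1 in the intercalated cells of the collecting duct. RNA was taken from whole tissue, so fewer cells of a type and less RNA per cell cannot be told apart.

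Every signed value below is a log2 ratio of kidney over liver, in which 1 is a doubling in kidney and -1 a doubling in liver. The labels do not say which channel was the numerator. The sign was taken from textbook markers, which opposes the order of the titles: 12 of 12 renal tubule genes tested were then higher in kidney (median 4.74), led by Kap (6.05), Miox (5.18) and Cubn (5.16). Likewise 17 of 19 hepatocyte genes tested were higher in liver (median -6.78), led by Ahsg (-8.01), Alb (-7.89) and Fgb (-7.81). These lists set the direction and are no independent evidence of it. With the order of the titles, kidney and liver would change places throughout. Repeat arrays were averaged by mouse and organ into 6 averages, and limma was fitted to these. As 3 mice gave both organs, the 6 averages are not 6 animals.

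The arrays of mouse 2 stood apart and touch most values of these genes. The median over all probes was within 0.0027 of 0 on the 10 arrays of mice 1 and 3, and between -1.49 and -1.19 on the 6 arrays of mouse 2. The labels state that ratios were normalised to a median of 1, a log2 of 0, which the values of mouse 2 do not meet. The displacement depended on signal. Brightness was read from the share of a probe's values that recur exactly on an array, since ratios of small whole-number intensities repeat. This share was taken on the arrays of mice 1 and 3 only. Among probes with the lowest share (0 to 10%), the medians of mice 1 and 3 and of mouse 2 were 0.29 and 0.07, while at a share of 90 to 100% they were -0.08 and -1.65. Results are therefore given as deposited, with mouse 2 aligned by signal (each of 10 signal classes moved to the median that mice 1 and 3 have there), and without mouse 2. Probes with values on fewer than 8 of the 10 arrays of mice 1 and 3 had no share. They were moved as a further class, whatever their brightness. Dlx6, Hoxd4 and Six5 of the tested members had no share, nor had Cd79a and Zfpm1, named below. The alignment brings mouse 2 closer to the others by construction.

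Before the values, the promoter windows of the members with the largest kidney excess after alignment are shown where the sequence table has an entry. They come from RefSeq on GRCm38.p6, run from 250 bases before to 50 after the start of transcription, and are written 5′ to 3′ along the gene. Windows were found for 29 of the 43 members (40 windows). Capitals mark matches to 4 motifs searched on both strands: the HNF1 half-site GTTAAT, the HNF4 motif CAAAGTCCA, the forkhead motif TGTTTAC and the homeobox motif TAATTA. Hnf4a has 2 starts, at chr2:163506607-163506906 and chr2:163546905-163547204 on the plus strand, Foxi1 lies at chr11:34208040-34208339 on the minus strand and Hoxd9 at chr2:74697513-74697812 on the plus strand.
Hnf4a start 1: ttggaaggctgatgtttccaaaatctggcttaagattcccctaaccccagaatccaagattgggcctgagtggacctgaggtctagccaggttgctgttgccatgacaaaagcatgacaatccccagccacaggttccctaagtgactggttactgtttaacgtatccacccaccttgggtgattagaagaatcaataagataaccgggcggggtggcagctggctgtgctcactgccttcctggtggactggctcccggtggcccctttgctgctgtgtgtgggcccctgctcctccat
Hnf4a start 2: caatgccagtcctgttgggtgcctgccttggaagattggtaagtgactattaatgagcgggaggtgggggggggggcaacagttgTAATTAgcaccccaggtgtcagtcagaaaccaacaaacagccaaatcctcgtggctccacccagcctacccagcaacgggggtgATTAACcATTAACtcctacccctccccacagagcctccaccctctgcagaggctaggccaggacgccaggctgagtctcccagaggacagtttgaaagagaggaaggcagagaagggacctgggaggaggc
Foxi1: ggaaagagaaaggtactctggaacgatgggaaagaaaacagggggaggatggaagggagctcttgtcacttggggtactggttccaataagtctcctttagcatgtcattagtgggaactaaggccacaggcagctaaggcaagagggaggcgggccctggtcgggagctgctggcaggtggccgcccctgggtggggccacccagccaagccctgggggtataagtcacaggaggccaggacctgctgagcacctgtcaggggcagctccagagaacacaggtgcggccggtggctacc
Hoxd9: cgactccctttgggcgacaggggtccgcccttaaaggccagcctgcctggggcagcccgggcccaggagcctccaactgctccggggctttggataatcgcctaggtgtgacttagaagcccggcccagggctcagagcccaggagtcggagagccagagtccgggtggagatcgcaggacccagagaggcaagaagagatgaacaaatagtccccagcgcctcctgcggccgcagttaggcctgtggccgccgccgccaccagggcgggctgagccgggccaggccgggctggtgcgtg
The second Hnf4a start held the homeobox motif at base 86 and the HNF1 half-site, read on the opposite strand, at bases 170 and 177. The other 3 windows held none of the 4 motifs, which says only that these letters are not in them. Over all 32851 promoter windows, the HNF1 half-site was present in 7.10%, the homeobox motif in 5.29%, the forkhead motif in 3.65% and the HNF4 motif in 0.475%. Among the 40 member windows, 4 held the HNF1 half-site (Hnf4a, Hoxd8, Sox11 and Tbx6) and 4 the homeobox motif (Foxn1, Foxp1, Hnf4a and Tbx6), while none held the other 2. The Hoxd9 window had 20 CG pairs and 68.3% G and C. The median member window had 13 CG pairs and 59.5% G and C, against 7 and 52.7% over all windows.

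The design sets kidney RNA against liver RNA for each of these genes. As deposited, 36 of the 43 could be tested, and 3 passed an adjusted p of 0.05 (limma, Benjamini-Hochberg over all 9047 genes tested): Hnf4a was higher in kidney, and Tbx2 and Sox9 were higher in liver. Over all genes, 5.56% were called higher in kidney and 8.88% higher in liver, so the members' counts of 1 and 2 were not above the background. The median of the members was -0.55 and that of all genes -0.48. Only 5 of the 36 had a positive estimate, against 22.0% of all genes. With mouse 2 aligned by signal, 5 members were higher in kidney (Hnf4a, Hoxd9, Foxi1, Sox6 and Hoxa11os) and 8 in liver (Tbx2, Irx3, Sox9, Foxo3, Tbx6, Pax6, Foxo1 and Pou6f1), beside 20.6% and 16% of all genes. The medians were then -0.03 and -0.02. Without mouse 2, 27 members had enough values, and 5 were higher in kidney (Hnf4a, Foxi1, Hoxd9, Sox17 and Gata2) and 3 in liver (Tbx2, Sox9 and Tbx6), beside 20.3% and 15.7% of 7575 genes.

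The number of members called moved with the treatment of the arrays, and so did the background. With each array centred, 5 members were higher in kidney and 7 in liver, beside 19.5% and 12.4% of all genes, and with arrays also scaled 6 and 7, beside 20.7% and 12.9%. After quantile normalization, 3 and 22 were called, beside 11.2% and 60.9%. With mouse as a block, the calls in kidney and liver were Hnf4a and Tbx2, beside 2.79% and 4.72%. In that fit on the deposited values limma gave each gene with a pair of averages in all 3 mice the same SE of 0.454, so its p-values rest on a spread shared over genes, not on that of the single gene. With the block on centred arrays, Hnf4a, Foxi1 and Hoxd9 were higher in kidney and Tbx2 in liver, beside 11.8% and 5.35%. With the block and mouse 2 aligned, Irx3 joined Tbx2 in liver, beside 15.4% and 10.2%. The block on mice 1 and 3 alone gave 5 calls in kidney (Hnf4a, Hoxd9, Foxi1, Hoxd8 and Sox17) and 3 in liver (Tbx2, Sox9 and Foxo3), beside 17.5% and 13.4%. Tbx2 was the only call without mouse 1 (background 1.84% and 4.2%), without mouse 3 (2% and 4.12%) and on kidney arrays alone (1.86% and 3.14%). Without dim probes, 16 members could be tested and Hnf4a and Tbx2 passed, beside 15.4% and 19.8%. With single arrays and a random block, 1 and 5 passed, beside 6.67% and 16%.

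**Figure D1:**
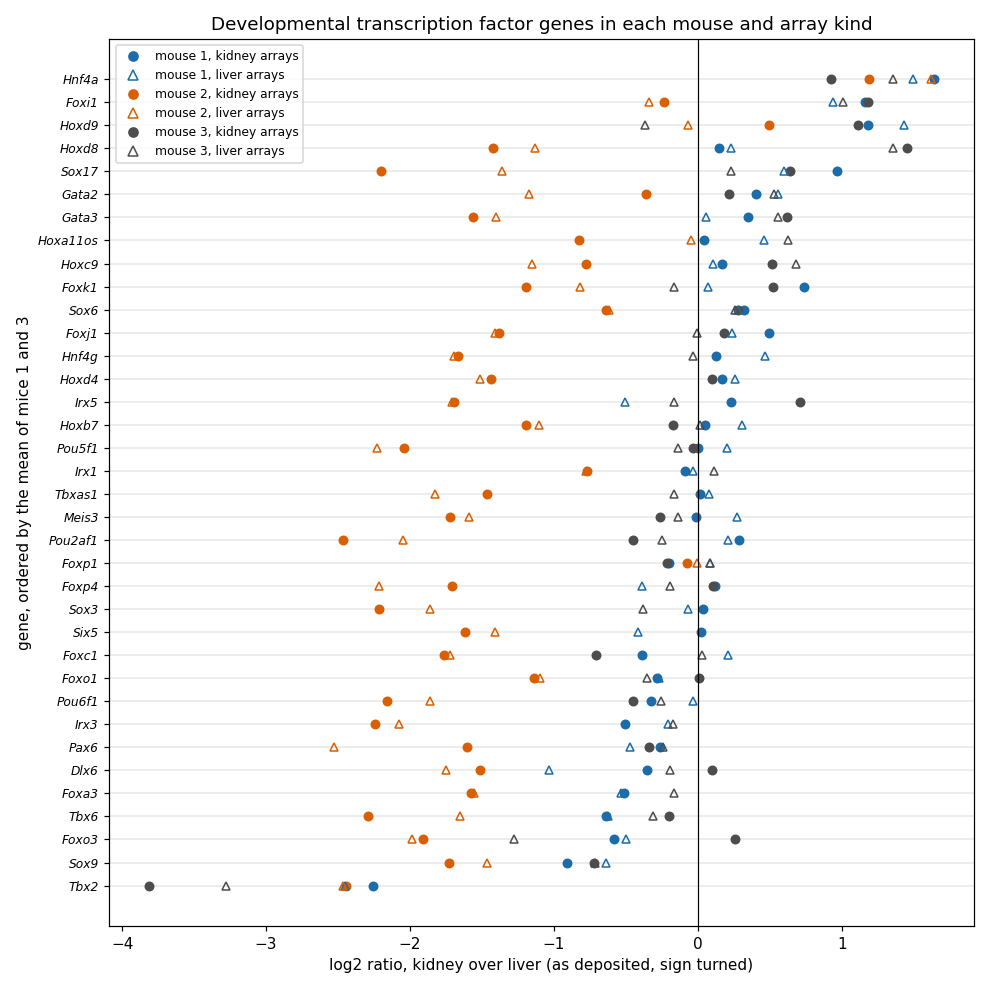
Log2 kidney over liver of the 36 tested members in each average of a mouse and organ, as deposited; dots are kidney arrays, open triangles liver arrays, and colours the mice, with members ordered by the mean of mice 1 and 3. The averages of mouse 2 lie below those of mice 1 and 3 for most members, but not for Hnf4a, Foxp1 and Tbx2.

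Hnf4a, the nuclear receptor that governs much of hepatocyte and proximal tubule gene expression, was the member with the highest kidney excess. Its averages on the kidney arrays were 1.64, 1.19 and 0.93 for mice 1, 2 and 3, and on the liver arrays 1.498, 1.62 and 1.36. All 6 lay above 0, and all 16 single arrays did too, between 0.93 and 1.74. The estimate was 1.37 (SE 0.21, 95% interval 0.90 to 1.85, adjusted p = 0.00252), which is 2.59-fold higher in kidney. It was 1.45 with mouse 2 aligned (adjusted p = 2.43e-05) and 1.36 without mouse 2 (adjusted p = 0.000487). With mouse as a block the adjusted p was 0.0354. Its 2 probes were both called, at 1.54 (SE 0.23) and 1.20 (SE 0.20), beside 5.18% of 18670 probes called higher in kidney and 7.45% in liver. None of their values recurred, and mouse 2 differed from mice 1 and 3 by 0.05. The call was lost without mouse 1 (1.28, adjusted p = 0.0903), without mouse 3 (1.49, adjusted p = 0.0525) and on the kidney arrays alone (1.25, adjusted p = 0.18). Hnf4g, its close relative, had no kidney average for mouse 3. Its averages of mouse 1 were 0.13 and 0.47 and those of mouse 2 -1.67 and -1.69, so the groups of values did not agree. Its estimate was -0.59 as deposited (95% interval -1.56 to 0.37) and 0.05 after alignment (adjusted p = 0.8).

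The forkhead genes had 9 of 12 members tested, of which 0 passed as deposited (limma) and 2 had an unadjusted p under 0.05 (Foxa3 and Foxo3). Foxi1, which drives the proton pump and anion exchanger genes of intercalated cells, averaged 1.16, -0.24 and 1.18 on the kidney arrays and 0.94, -0.34 and 1.01 on the liver arrays. Mice 1 and 3 were high and close to each other, and both averages of mouse 2 were below 0. As deposited it was not called (0.62, SE 0.29, adjusted p = 0.164). It was higher in kidney after alignment (0.89, SE 0.14, 1.85-fold, adjusted p = 0.000766, and 0.00316 with mouse as a block) and without mouse 2 (1.07, adjusted p = 0.000329). Slc26a4, the anion exchanger pendrin of these cells and 1 of the direction markers, was 2.54 (SE 0.25) and had no recurring values.

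**Figure D2:**
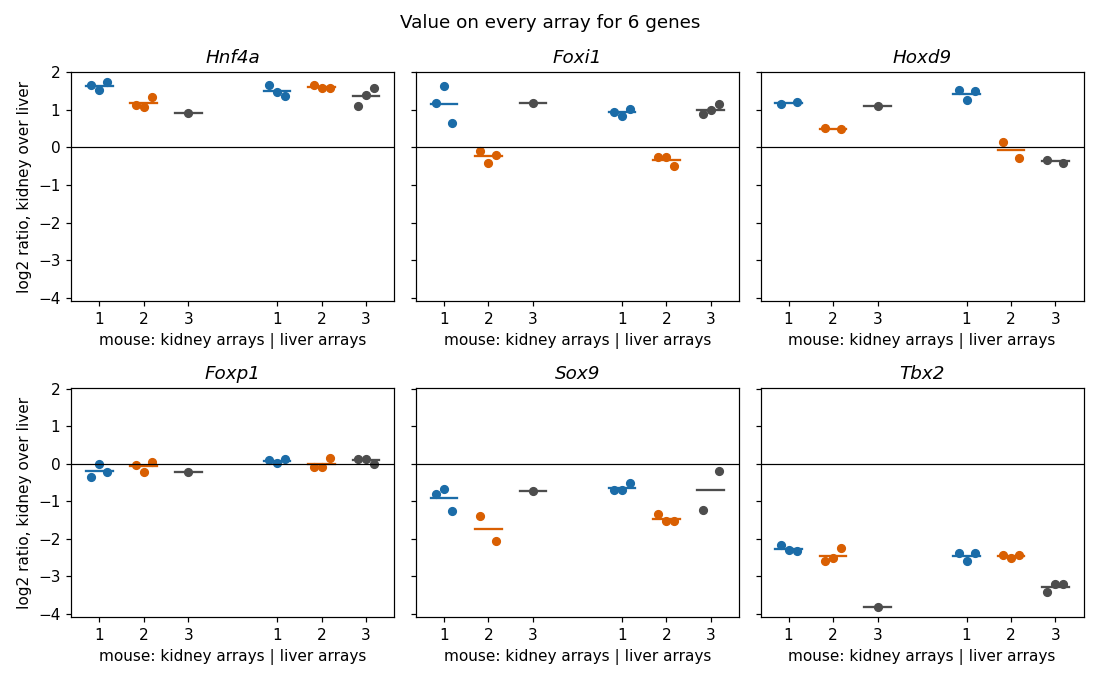
Log2 kidney over liver of Hnf4a, Foxi1, Hoxd9, Foxp1, Sox9 and Tbx2 on every array with a value, as deposited, by mouse and array kind, with a line at the average of each. Hnf4a lies above 0 and Tbx2 below 0 on all 16 arrays, while Foxi1 lies above 0 in mice 1 and 3 and below 0 in mouse 2.

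Foxo1 and Foxo3, forkhead factors under insulin control, had estimates of -0.52 and -1.0 as deposited (adjusted p = 0.16 and 0.0785). Both were higher in liver after alignment (-0.37, adjusted p = 0.0482, and -0.49, adjusted p = 0.0352), but not with mouse as a block as well (0.168 and 0.0563) or without mouse 2 (-0.22, adjusted p = 0.169, and -0.53, adjusted p = 0.0707). With arrays centred, Foxo1 was only -0.07 (adjusted p = 0.717). Foxo3 averaged -0.58, -1.91 and 0.26 on the kidney arrays and -0.50, -1.99 and -1.28 on the liver arrays, but the value of 0.26 comes from 1 probe alone, as the other had none on that array. The shared probe was 0.26 on the kidney array and -0.71 on the liver arrays of mouse 3. Its 2 probes also differed: as deposited 1 was called higher in liver (-1.41, SE 0.32, adjusted p = 0.0295) and the other was not (-0.84, SE 0.35, adjusted p = 0.135). Foxa3, a forkhead factor of hepatocytes, was -0.90 (SE 0.31, adjusted p = 0.0993), and -0.28 after alignment (adjusted p = 0.162). Foxc1, a factor of mesenchyme, was -0.72 (adjusted p = 0.146) and -0.30 after alignment (adjusted p = 0.094). Foxp1, a widely expressed repressor, was among the 3 members without recurring values, with Hnf4a and Tbx2. Its averages lay between -0.21 and 0.09, and its estimate of -0.05 had a 95% interval of -0.50 to 0.39. After alignment this was 0.02, with an interval of -0.23 to 0.27, so a difference of 1 doubling lay outside both intervals. With arrays centred the interval was -0.17 to 0.97. With the block on centred arrays it was -0.29 to 1.09, which holds a doubling in kidney. The remaining forkhead members tested, Foxj1, Foxk1 and Foxp4, were -0.32, -0.14 and -0.71 and passed neither as deposited nor after alignment.

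The Hox genes, which give positional identity along the body axis, had 6 of 6 members tested, and as deposited 0 passed (limma), also at an unadjusted p under 0.05. Their estimates ran from -0.51 to 0.63 (median -0.05), and 2 of 6 were positive. After alignment, after centring each array and after centring and scaling, all 6 were positive (0.09 to 1.14 after alignment, median 0.39). These treatments moved most genes up: 22.0% of all genes were positive as deposited, 48.0% after alignment, 49.0% after centring and 48.7% after scaling. After quantile normalization 3 of 6 were positive, and without mouse 2 all 4 of those tested. Hoxd9, a posterior Hox gene of the kidney mesenchyme, averaged 1.18, 0.50 and 1.11 on the kidney arrays and 1.43, -0.07 and -0.37 on the liver arrays. In mouse 3 the single kidney array and the liver arrays thus differed in sign. It was 0.63 (SE 0.28, adjusted p = 0.148) as deposited, and higher in kidney after alignment (1.14, SE 0.24, 2.2-fold, adjusted p = 0.00506, and 0.00228 with the block). Without mouse 2 it was 0.84 (adjusted p = 0.0499). Its 1 probe had a value on 12 arrays, and on those of mice 1 and 3 75.0% of its values recurred, so by this share the probe read as dim.

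Hoxd8 had mouse 3 above mouse 1 by over 1 doubling on both kinds of arrays. It averaged 0.15, -1.42 and 1.46 on the kidney arrays and 0.23, -1.13 and 1.36 on the liver arrays, so both kinds of arrays gave the same order of the mice. Its estimate was 0.11 (SE 0.43) as deposited and 0.53 after alignment (adjusted p = 0.098). Hoxb7, a gene of the ureteric bud, and Hoxc9 and Hoxd4 were -0.35, -0.08 and -0.51 as deposited, and 0.17, 0.35 and 0.09 after alignment (adjusted p = 0.317, 0.0611 and 0.617). The antisense RNA Hoxa11os was -0.02 as deposited and was called higher in kidney after alignment (0.43, adjusted p = 0.0437), but not with the block on mice 1 and 2, where it has both organs (0.184). Whether its probe tells the strands apart is not given in the sources used here.

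Among the Sox genes, 4 of 5 were tested. Sox9, a factor of bile duct cells and of the growing renal duct, averaged -0.91, -1.73 and -0.72 on the kidney arrays and -0.64, -1.46 and -0.71 on the liver arrays. All 6 averages were below 0, and those of mouse 2 were the lowest. It was -1.03 (SE 0.24, 95% interval -1.57 to -0.48, 2.04-fold, adjusted p = 0.022), -0.51 after alignment (adjusted p = 0.0259) and -0.75 without mouse 2 (adjusted p = 0.00203). With mouse as a block it did not pass (adjusted p = 0.181, and 0.0758 after alignment). It also missed the threshold without mouse 1 (-1.16, adjusted p = 0.147), without mouse 3 (-1.19, adjusted p = 0.13), and on kidney or liver arrays alone (-1.12 and -0.94, adjusted p = 0.264 and 0.186). On the arrays of mice 1 and 3, 66.7% of the values of Sox9 recurred.

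Sox9 was itself on the list of bile duct and collecting duct epithelial markers, of which 6 of 11 were tested. Besides Sox9, only the keratin gene Krt18 was called higher in liver (-1.87, SE 0.30, adjusted p = 0.0056), and the list ran from -1.87 to 0.82 with a median of -0.73. Krt7 (0.82), Krt19 (-0.63), Epcam (-0.825) and Cldn4 (-0.54) were not called as deposited. After alignment the duct keratin gene Krt7 was higher in kidney (1.24, adjusted p = 6.42e-05). The part of these cells in the values of Sox9 was not tested.

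Sox17, an endothelial factor, showed the widest displacement of mouse 2 among the members, a rank that leans on 1 array. Its kidney arrays of mouse 2 read -3.75, -1.89 and -0.97, and its SD between repeat hybridisations (0.653) was the largest of the members. Its averages were 0.97, -2.20 and 0.64 on the kidney arrays and 0.60, -1.36 and 0.23 on the liver arrays, and mouse 2 lay 2.39 below the others. As deposited it was -0.19 (adjusted p = 0.75), after alignment 0.30 (adjusted p = 0.264), and without mouse 2 it was higher in kidney (0.61, adjusted p = 0.00922). Sox6, known from cartilage and red blood cell development, was -0.02 as deposited and higher in kidney after alignment (0.46, adjusted p = 0.0227), but not without mouse 2 (0.28, adjusted p = 0.0761) or with the block after alignment (0.093). Only 1 of its 2 probes passed after alignment (0.66, adjusted p = 0.00401; the other 0.27, adjusted p = 0.193). Sox3 was -0.93 and did not pass under either treatment.

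Gata2, a factor of blood progenitors, endothelium and the collecting duct, averaged 0.40, -0.36 and 0.22 on the kidney arrays and 0.55, -1.18 and 0.53 on the liver arrays. It was 0.03 as deposited and 0.16 after alignment (adjusted p = 0.941 and 0.512), and higher in kidney without mouse 2 (0.43, adjusted p = 0.0216), but not with the block on mice 1 and 3 (0.0584). Gata3, a factor of the nephric duct and of T cells, was -0.23 as deposited, 0.26 after alignment and 0.40 without mouse 2 (adjusted p = 0.627, 0.162 and 0.0549).

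Endothelial and stromal markers are set here beside Sox17 and Gata2. Of 17, 12 were tested, and 0 passed as deposited (limma; 1 at an unadjusted p under 0.05), with values from -1.10 to 0.73 and a median of -0.14. After alignment 5 were higher in kidney, among them the endothelial gene Emcn (0.88) and the collagen genes Col1a1 (1.06) and Col3a1 (0.61). Des was higher in liver (-0.57). Over all genes 20.6% were then called in kidney and 16% in liver. Emcn was the only endothelial gene called: Flt1 (0.31), Vwf (0.12), Eng (0.05) and Tie1 (-0.30) did not pass. Without mouse 2, Emcn was 1.30. Of 9 blood and immune markers tested of 18, 3 were higher in liver as deposited, beside 8.88% of all genes. They were Clec4f of Kupffer cells (-1.91, SE 0.28), Cd79b of B cells (-1.22, SE 0.30) and Cd4 of T cells (-1.19, SE 0.31). With the block Clec4f kept its call, and Cd79b and Cd4 did not pass (adjusted p = 0.129 and 0.0975). Cd79a, also of B cells, was 0.11 as deposited and higher in kidney after alignment (0.70, adjusted p = 0.0404). The T cell genes Cd3g (-0.665) and Cd8a (-0.80) were not called as deposited or after alignment. The part of these cells in the members' values was not tested.

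Tbx2, a T-box repressor, had the largest difference of all members. Its averages were -2.26, -2.45 and -3.82 on the kidney arrays and -2.45, -2.47 and -3.28 on the liver arrays. All 16 arrays were below 0, between -3.82 and -2.16, with mouse 3 lowest on both kinds. The estimate was -2.79 (SE 0.27, 95% interval -3.41 to -2.16, 6.89-fold higher in liver, adjusted p = 0.000195), and -2.71 after alignment and -2.95 without mouse 2. The call held in all 19 alternatives, and with mouse as a block, at the shared SE of 0.454, the adjusted p was 3.97e-08. Tbx2 has 1 probe, and none of its values recurred. Tbx6, a gene of the embryonic mesoderm, was -0.95 as deposited (adjusted p = 0.0882), and higher in liver after alignment (-0.45, adjusted p = 0.0197) and without mouse 2 (-0.44, adjusted p = 0.0354), but not with the block after alignment (0.0858). The enzyme gene Tbxas1 was -0.68, and -0.05 after alignment.

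The other families had 10 members tested, of which 0 passed as deposited (limma) and 4 had an unadjusted p under 0.05 (Dlx6, Irx3, Pax6 and Pou6f1). Irx3, an Iroquois gene of nephron segments, had no kidney average for mouse 3 and averaged -0.51 and -2.24 on the kidney arrays and -0.21, -2.08 and -0.17 on the liver arrays. All 5 lay below 0, and the pair of mouse 2 far lower, but single liver arrays of mouse 3 ran from -1.34 to 0.75. Irx3 was -1.10 as deposited (adjusted p = 0.11). After alignment it was higher in liver (-0.91, adjusted p = 0.0264, and 0.0205 with the block, which could use mice 1 and 2 only). In its signal class (10 to 20% recurring) the medians of mice 1 and 3 and of mouse 2 were 0.18 and -0.28. Its own means there were -0.30 and -2.16, so alignment left mouse 2 far lower, and the aligned calls include that displacement. Irx1 was -0.33 as deposited and 0.001 after alignment, and Irx5 -0.52 and -0.01. Pax6, an eye and pancreas gene, was -0.91 (adjusted p = 0.115), and higher in liver after alignment (-0.38, adjusted p = 0.0458), and every value of its probe on mice 1 and 3 recurred. Pou6f1 was -0.85, and higher in liver after alignment (-0.34, adjusted p = 0.0389); with the block neither passed (0.134 and 0.186). The pluripotency gene Pou5f1, the coactivator gene Pou2af1, and Dlx6, Meis3 and Six5 lay between -0.86 and -0.57 as deposited and passed under neither treatment.

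**Figure D3:**
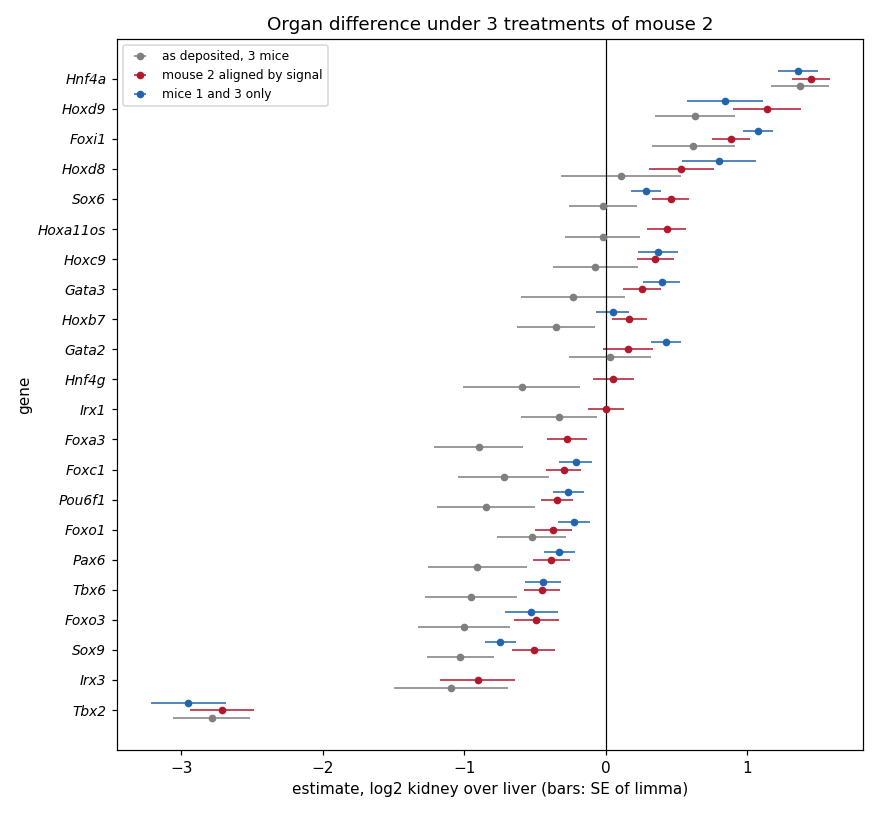
Estimated log2 kidney over liver with its SE for the 22 members named by the fixed rule, as deposited (grey), with mouse 2 aligned by signal (red) and from mice 1 and 3 only (blue, absent where not tested). Hnf4a and Tbx2 have nearly the same estimate under all 3, while most others lie higher under the other 2 treatments than as deposited.

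For 7 members the fit of both kinds of arrays had too few values. Foxk2, Foxn3 and Sox11 had none on any array. Foxn1, the thymic epithelial factor, had 2 averages (-0.83 and -0.47), Pax3 had 3, and Nkx2-6 and Pax1 had 4 each. On liver arrays alone 39 members could be tested. Hnf4a was then higher in kidney and Tbx2 and Pax3 higher in liver, beside 3.18% and 5.77% of all genes. In that fit limma gave each member with 3 averages the same SE of 0.443, and each with 2 averages 0.543. Its p-values thus rest on a spread shared over genes, not on that of the single gene. Pax3, a gene of the neural crest and muscle precursors, was -1.57 (SE 0.54, adjusted p = 0.0437) from mice 1 and 3 (-0.83 and -2.32). Its value of mouse 3 came from 1 array, and its kidney average of mouse 1 was -0.14. Nkx2-6 and Pax1 were -1.26 and -0.54 there and were not called (adjusted p = 0.0512 and 0.427). Of the 43, 14 had a value on all 16 arrays and 26 on at least 15.

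By the share of recurring values, the members read as dimmer than the array as a whole. The values are ratios only, so brightness itself was not measured. The median share of recurring values was 55.6% over the 33 members with a share, against 44.4% over 8174 genes, and 18 of 33 members had a share over 50% against 40.3% of genes. Mouse 2 lay below mice 1 and 3 by a median of 1.62 for members over that share and by 0.89 for the 7 members at or under 20%. Over all genes these medians were 1.45 and 0.44. Within an array kind, the median SD between mice was 0.93 over the tested members and 0.75 over all genes, and 0.18 and 0.22 with mice 1 and 3 alone. Between repeat hybridisations it was 0.27 and 0.26.

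**Figure D4:**
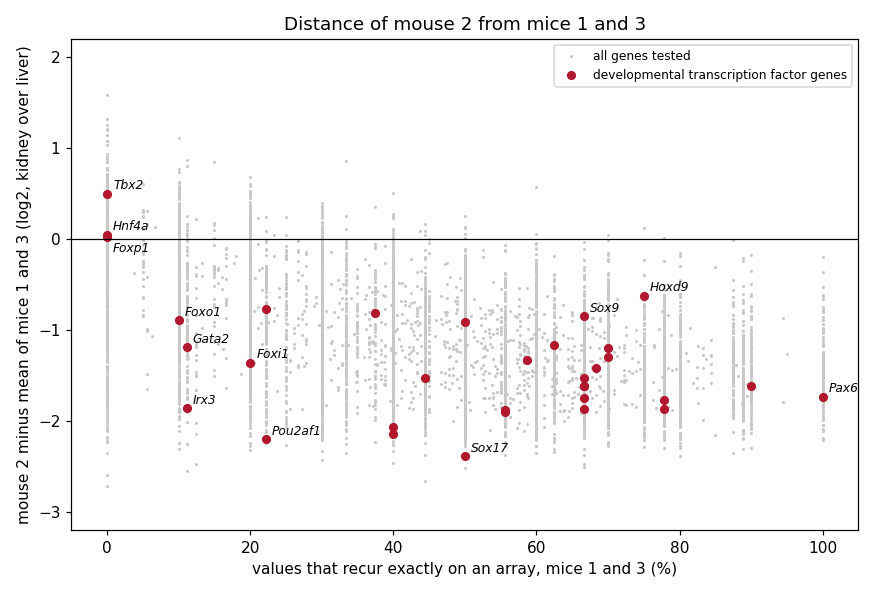
Mouse 2 minus the mean of mice 1 and 3 in log2 kidney over liver (vertical) against the share of a gene's values that recur exactly on an array (horizontal, percent); grey points are all genes, red points members. Hnf4a, Foxp1 and Tbx2 sit at 0% and at 0.05, 0.02 and 0.49, while members with a share over 50% have a median of -1.62.

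The difference between kidney arrays and liver arrays passed for 0 of 9047 genes (0%, limma), and 16 genes and 0 members had an unadjusted p under 0.05. This term was fitted without mouse as a block, so the displacement of mouse 2, present on both kinds, widened its SE. The test could hardly call a difference and does not show that both kinds of arrays agree. The largest difference of a member was 0.73. Signs were the same in all averages for 8 members (1 above 0 and 7 below), beside 33.2% of all genes (8.91% above and 24.3% below).

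Cofactors that work with these families were read from a separate list, of which 19 of 34 were tested. Tle1, a Groucho corepressor, was higher in liver (-2.07, SE 0.26, adjusted p = 0.00151, and 0.00461 with the block). Ldb1, the partner of LIM factors, was also called higher in liver (-0.95, SE 0.26, adjusted p = 0.0411), but not after alignment (0.0611) or with the block (0.227). After alignment 5 cofactors were higher in kidney, led by the coactivator gene Crebbp (0.90, adjusted p = 0.00393) and the LIM-only gene Lmo4 (0.66, adjusted p = 0.00131), and Zfpm1 (-0.40) was higher in liver beside Tle1. This is beside 20.6% of all genes in kidney and 16% in liver, and with the block and alignment Crebbp and Lmo4 in kidney and Tle1 in liver were the calls.

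Of other regulators of renal development, 9 of 31 were tested. The growth factor gene Bmp7 was higher in kidney as deposited (0.96, SE 0.26, adjusted p = 0.0408), after alignment (1.11, adjusted p = 0.000305) and without mouse 2 (1.26), but not with the block on the deposited values (0.224). The homeobox gene Emx1, whose name the rule does not cover, was 0.82 (adjusted p = 0.0721) and higher in kidney after alignment (0.90, adjusted p = 0.00274). With the block and mouse 2 aligned, Bmp7 and Emx1 were both called higher in kidney, beside 15.4% of all genes.

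Of other hepatic transcription regulators, 16 of 22 were tested, with 8 calls in liver and 1 in kidney (6 and 1 under the block). Over all genes 8.88% and 5.56% were called as deposited, and 4.72% and 2.79% under the block. The circadian gene Dbp was -3.96 (SE 0.28), the nuclear receptor genes Nr5a2 and Nr1i2 -2.23 (SE 0.20) and -1.81 (SE 0.23), and the homeobox gene Hhex -1.59 (SE 0.27). Xbp1, a factor of the secretory pathway, was higher in kidney (1.59, SE 0.21, adjusted p = 0.00105). After alignment 8 were called in liver and 4 in kidney, beside 16% and 20.6% of all genes. Those in kidney were Xbp1 (1.66), Nr2f2 (1.07), Zhx2 (0.65) and Ppara (0.54). Among the members, the lists of renal and hepatic regulators had 10 of 36 and 6 of 14 genes tested. The renal list had 0 higher in kidney and 1 in liver (Sox9) as deposited, and Foxi1 and Hoxd9 higher in kidney and Irx3 and Sox9 higher in liver after alignment. These 2 of 10 in each direction stand beside 20.6% and 16% of all genes, and with the block as well Sox9 was not called. The hepatic list, which also holds Sox9, had Hnf4a higher in kidney and Sox9 in liver as deposited, joined in liver by Foxo1 and Foxo3 after alignment; with the block and alignment, Hnf4a was its only call.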

How the data were processed

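RNA of kidney and liver was measured on 16 arrays with 2 colours; per the labels' protocols, GenePix Pro 3.0 gave background-subtracted mean intensities whose ratios were brought to a median of 1, which the deposited values of mouse 2 do not show. The values deposited by the authors are log2 ratios. The base was read from the values: among the 10 values that recur most on each array, 60 of the 144 steps from a value to its next neighbour equalled, to 0.0001, log2 of a quotient of integers no larger than 10; the natural logarithm gave 0 such steps and log10 gave 1. Dye assignment is not given in the sources used here, and depth has no meaning for arrays, where the number of mice limits precision. Of 20419 probes, 15480 to 19432 had a value on an array; 11723 had 1 symbol in the platform annotation, 806 several and 7890 none.

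Values were turned to kidney over liver, probes of a symbol averaged, and arrays of a mouse and organ averaged. limma 3.58.1 in R 4.3.3 (lmFit, eBayes) was fitted with a mean and a term for array kind, on genes measured in 2 or more mice for each organ; tests are two-sided, with Benjamini-Hochberg adjustment. The script was tested on simulated data. Figures were drawn with matplotlib 3.10.9. Pairing: mouse numbers name the same animals, per the labels, and correlations over 7514 genes between the kidney and the liver deviations of mice 1, 2 and 3, taken as single sample over pool, were -0.575, -0.789 and -0.568. Turned to kidney over liver they are positive, so that the unblocked fit understates SE and p of the organ difference. For the difference between array kinds it overstates them. The fit with mouse as a block was an alternative, as were centring, scaling, quantile normalization, the alignment of mouse 2, filters, a robust prior, array kinds alone and each mouse left out.

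Members and lists were chosen with earlier results of these data known. Members were named if called as deposited with 1 sign in all averages, if called after centring or alignment, or if on the renal or hepatic role lists; other lists name at most the 3 largest calls per direction. Named beyond this rule, after their values were seen, were Sox17, Foxp1 and the other members without a call, Slc26a4, Hhex, Emx1, Crebbp, Lmo4, Zfpm1, Krt7, Emcn, Col1a1, Col3a1 and Des. The same holds for Krt19, Epcam, Cldn4, Flt1, Vwf, Eng, Tie1, Cd79a, Cd3g, Cd8a, Nr2f2, Zhx2 and Ppara.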

Additional observations from a re-analysis of the deposited data

How the results depend on the processing

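As deposited, 1 member was higher in kidney and 2 in liver. The count in kidney was 5 with arrays centred, 5 with mouse 2 aligned by signal, 6 with arrays centred and scaled, 3 after quantile normalization and 0 on kidney arrays alone, and that in liver 7, 8, 7, 22 and 1. Quantile normalization kept the median of all genes below 0, and 60.9% of all genes were then called higher in liver. With the replicate block, which takes 1 value per mouse, 1 member was called in each organ; with the replicate block on centred arrays it was 3 and 1. In the 2 alternatives added after the data were seen, the replicate block gave 5 in kidney with mice 1 and 3 only, and 3 in kidney with mouse 2 aligned by signal. Leaving out each mouse gave 0 to 5 in kidney and 1 to 3 in liver. The liver count was 1 without dim probes and 5 with single arrays and a random block. The median of the members was -0.55 as deposited and lay near 0 wherever mouse 2 was shifted or left out (-0.07 centred, -0.03 aligned, 0.01 without mouse 2), as did that of all genes; its SD between mice of 0.9 holds the displacement of mouse 2 and is no measure of stability.

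Several members without a call as deposited changed sign. With arrays centred, mouse 2 aligned, arrays scaled, and the replicate block on centred arrays, the values were 0.22, 0.26, 0.28 and 0.22 for Gata3, 0.55, 0.43, 0.51 and 0.59 for Hoxa11os, 0.10, 0.17, 0.10 and 0.10 for Hoxb7, 0.38, 0.35, 0.39 and 0.38 for Hoxc9, 0.24, 0.001, 0.18 and 0.26 for Irx1, and 0.43, 0.46, 0.41 and 0.43 for Sox6. Without mouse 2, and equally with the replicate block on mice 1 and 3 only, they were 0.40 for Gata3, 0.049 for Hoxb7, 0.37 for Hoxc9 and 0.28 for Sox6. With the replicate block and mouse 2 aligned they were 0.26 for Gata3, 0.081 for Hnf4g, 0.45 for Hoxa11os, 0.17 for Hoxb7, 0.35 for Hoxc9 and 0.46 for Sox6. Hnf4g was 0.053 with mouse 2 aligned and 0.022 scaled, and Hoxa11os 0.015 after quantile normalization and 0.35 on liver arrays alone. Gata2 was -0.005 after quantile normalization and -0.031 on liver arrays alone. Leaving out each mouse in turn gave -0.196 to 0.427 for Gata2 (-0.144 without mouse 3), -0.641 to 0.396 for Gata3, -0.614 to 0.049 for Hoxb7, -0.413 to 0.368 for Hoxc9, -0.542 to 0.799 for Hoxd8 and -0.18 to 0.284 for Sox6. The cause was not tested. Precision is limited by 3 mice, and how far dim signal limits it was not tested.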
